A study of Mus musculus with 2 samples.

Results

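CD4 T cells without regulatory markers are described here as a subset of the Foxp3-negative, conventional CD4 cells among the T cells of RM-1 tumors, those with no UMI of Il2ra or Ikzf2. A barcode was counted as one of them when it held at least 1000 UMIs, at most 20% mitochondrial UMIs, at least 2 UMIs summed over Cd3d, Cd3e and Cd3g, at least 1 UMI of Cd4, and 0 UMIs of Cd8a, Cd8b1, Foxp3, Il2ra and Ikzf2, with at most 2 UMIs each of Krt8 plus Krt18, of C1qa, C1qb plus C1qc, and of Lyz2. A UMI is a molecular tag that stands for 1 captured transcript. This rule found 68 cells among 22524 barcodes that met the depth and mitochondrial limits, 18 of 12253 in the control library and 50 of 10271 in the ENZ library. RM-1 is a mouse prostate cancer line that is resistant to the androgen receptor antagonist enzalutamide (ENZ) without prior exposure, and its cells were injected into the prostate of wild-type C57BL/6 mice. One library came from tumor tissue after vehicle (control) and the other after ENZ, both from the same RM-1 model. Cell preparation included a kit-based enrichment of immune cells, followed by a CD45 antibody stain. The tissue came from a pair of mice, whose age and sex are not given in the sources used here, and the ENZ schedule in the methods is stated for the treatment experiment without naming these mice. The labels name RM-1 prostate cancer cells as the cell type, and the cells described here are T cells within those tumors. With 1 library per group there was no replicate, so no test was made and no p-value is given. All intervals are 95% intervals, exact Clopper-Pearson for shares, Newcombe for differences of shares, exact Poisson for levels and exact conditional binomial for ratios. They cover counting error and not the difference between mice, cell preparation or sequencing runs, which cannot be told apart from the treatment. The intervals of levels and ratios also treat the summed UMIs as independent. They leave out the spread between cells, and are too narrow where 1 cell holds most UMIs of a gene.

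CD4 T cells recognize peptides on major histocompatibility complex (MHC) class II molecules through the T cell receptor and steer other immune cells with cytokines and with surface ligands such as CD40 ligand. Naive and central memory cells keep the transcription factors Tcf7, Lef1 and Klf2, whereas cells that have met antigen take on helper programs, among them Th1 (Tbx21, Ifng), Th2 (Gata3, Il4), Th17 (Il17a) and T follicular helper (Bcl6, Il21). Regulatory T cells are a separate CD4 lineage set by Foxp3 that restrains these responses.

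The values that chose the members are given here as a description. Of the barcodes within the depth and mitochondrial limits, 699 control and 817 ENZ barcodes had 2 CD3 UMIs or more. Requiring a Cd4 UMI left 119 and 243, removing Cd8a or Cd8b1 left 108 and 232, and removing Foxp3 left 78 and 186. Requiring the absence of Il2ra and Ikzf2 left 22 and 55, and the limits on epithelial and macrophage genes then left 18 and 50. Cd4 itself was shallow. It was at 1 UMI in 10 of 18 control and 22 of 50 ENZ members, with a highest value of 3 and 6 UMIs. Just outside the rule, 103 control and 82 ENZ barcodes met every condition but had 0 Cd4 UMIs, and 8 and 9 had only 1 CD3 UMI. A further 5 control and 20 ENZ barcodes missed by a single Il2ra or Ikzf2 UMI. In regulatory T cells, which belong to the CD4 lineage and were counted by Foxp3 without requiring Cd4, a Cd4 UMI was present in only 51.3% of 39 control and 51.9% of 81 ENZ cells, so a cell without a Cd4 UMI at this depth is not shown to lack Cd4. Nor is a member with 0 UMIs of Foxp3, Il2ra and Ikzf2 shown to lack them. A UMI of Ctla4 or Tnfrsf18, genes also found in regulatory T cells, was seen in 11 of 18 control and 36 of 50 ENZ members.

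The members carried T cell receptor transcripts and few defining transcripts of other lineages. A UMI of Trac, Trbc1 or Trbc2, the constant segments of the receptor, was found in 18 of 18 control and 45 of 50 ENZ members. Cd40lg, which encodes CD40 ligand (ENSMUSG00000031132, chromosome X from 57212143 to 57224042, plus strand, GENCODE M21 on GRCm38), was found in 4 control and 8 ENZ members, each with 1 UMI. Its level was 53.9 CPM (UMIs of the gene in each 1000000 UMIs of the members) in control and 35.6 CPM in ENZ members. Cd40lg had 0 and 9.06 CPM in regulatory T cells and 3.53 and 3.48 CPM in CD8 T cells, and a Cd40lg UMI was found in 0 of 2167 control and 1 of 2839 ENZ cancer cells. Il7r, the receptor of the survival cytokine IL-7 (ENSMUSG00000003882, chromosome 15 from 9505788 to 9530176, minus strand), had 108 CPM (46.5 to 212) in the 18 control members and 205 CPM (150 to 273) in the 50 ENZ members. In regulatory T cells Il7r had 153 and 283 CPM, so it did not set the members apart from that class, while CD8 T cells had 45.8 and 44.1 CPM. Both helper markers were sparse in single cells and lay above their CD8 T cell levels in both libraries.

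Defining genes of B, gamma delta T, erythroid and mast cells were at or near 0, while the summed markers of myeloid cells and of group 2 innate lymphoid cells were not. The 8 B cell markers summed to 0 control and 2 ENZ UMIs, the 6 gamma delta T cell markers to 0 and 1 UMI, the 5 erythroid markers to 0 in both, and the 5 mast cell markers to 1 and 4 UMIs. Ncr1, Klrb1c, Klra4, Klra8 and Klre1, which mark NK cells, were at 0 in both libraries. The full list of 9 NK and innate-like markers summed to 8 UMIs (108 CPM) in control and 36 UMIs (160 CPM) in ENZ, led by Fcer1g with 5 and 16 UMIs, 9 of them in 1 ENZ cell. Adgre1 and Trem2 of macrophages, Retnlg, Csf3r and Ly6g of neutrophils, and Xcr1, Clec9a and Siglech of dendritic cells were also at 0 in both. A single control member held 8 UMIs of the neutrophil gene S100a9. In the ENZ library 1 member held 13 UMIs of H2-Aa, 12 of Cd74 and 9 of Chil3, and another held 39 UMIs of H2-Aa, 48 of H2-Ab1 and 87 of Cd74, all genes of antigen-presenting or myeloid cells. The summed level of 10 dendritic cell markers, Cd74 being the most abundant, was 283 CPM in control and 1072 CPM in ENZ members, against 2096 and 1065 CPM in regulatory T cells. The 7 markers of group 2 innate lymphoid cells summed to 11 UMIs (148 CPM) in control, led by Gata3, and 77 UMIs (342 CPM) in ENZ, led by Areg, which is also on the Th2 and regulatory lists below. The summed level of 10 macrophage markers was 269 and 334 CPM (Ctsb the most abundant), of 9 neutrophil markers 296 and 142 CPM (S100a9 and Il1b), of 8 monocyte markers 687 and 538 CPM (Ly6c2 and Plac8), and of 8 epithelial markers 53.9 and 84.5 CPM (Krt8). The part of these transcripts in the differences below was not tested, and H2-Aa and Cd74 are given with and without the 3 members named.

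The members had a median of 3730 UMIs per cell in the control library (lowest 1965, highest 8283) and of 3858 in the ENZ library (1493 to 11711), with a median of 1433.5 and 1663.5 genes. Summed over members, this gave 74240 control and 224824 ENZ UMIs, so that 3 UMIs, taken as the limit for a count of 0 and lower than the upper end of an exact Poisson interval at 0, stood for 40.4 CPM in control and 13.3 CPM in ENZ. The median share of mitochondrial UMIs was 2.33% and 1.75%. None of the members' barcodes occurred among barcodes of at least 500 UMIs in the other library, although 40 barcodes of at least 1000 UMIs were common to both.

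CD4 T cells without regulatory markers made up a larger share of T cell barcodes in the ENZ library. CD3 barcodes are here those with 2 CD3 UMIs or more that also met the rule's limits on epithelial and macrophage genes. The members were 18 of 506 CD3 barcodes in the control library (3.56%, 2.12% to 5.56%) and 50 of 712 in the ENZ library (7.02%, 5.26% to 9.15%), a difference of 3.47 percentage points (0.792 to 6.03). Of all barcodes within the depth and mitochondrial limits they were 0.147% and 0.487%, a difference of 0.340 points (0.188 to 0.506). Of CD3 barcodes, the shares of the neighbouring classes were higher in the ENZ library as well, for CD8 T cells with an interval that included 0. Cells with Cd4 and with Il2ra or Ikzf2 but no Foxp3 were 6.72% (34 cells) and 15.4% (110 cells) of CD3 barcodes, regulatory T cells 7.71% (39 cells) and 11.4% (81 cells), and CD8 T cells were 91 and 154 barcodes, where the interval of the difference in share, 3.65 points, ran from -1.05 to 8.21. The CD3 barcodes that fell in none of these classes made up 64.0% (324 cells) and 44.5% (317 cells).

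The size of the difference depended on the denominator. Among CD3 barcodes with a Cd4, Cd8a or Cd8b1 UMI the members were 10.7% (18 of 169) in control and 13.7% (50 of 365) in ENZ, a difference of 3.05 points whose interval, -3.53 to 8.83, included 0. Among Cd4-positive cells without Foxp3 they were 34.6% (18 of 52) and 31.3% (50 of 160), a difference of -3.37 points (-19.5 to 11.5). Among CD3 barcodes with a Cd4, Cd8a or Cd8b1 UMI the cells with Il2ra or Ikzf2 and no Foxp3 were 20.1% and 30.1%, a difference of 10.0 points (1.74 to 17.6). On that denominator CD8 T cells were 53.8% and 42.2%, a difference of -11.7 points (-20.9 to -2.23), and regulatory T cells 11.8% and 11.5%, a difference of -0.33 points (-6.94 to 5.48). With 0 UMIs allowed for the epithelial and macrophage genes, and at most 1 UMI over 8 further lineage genes (the strict lineage limits), 9 control and 23 ENZ members remained and the difference among CD3 barcodes was 1.75 points (-2.34 to 5.30). The enrichment of immune cells and the depth at which Cd4 is seen can both set these shares, and their part in the difference was not tested.

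**Figure D1:**
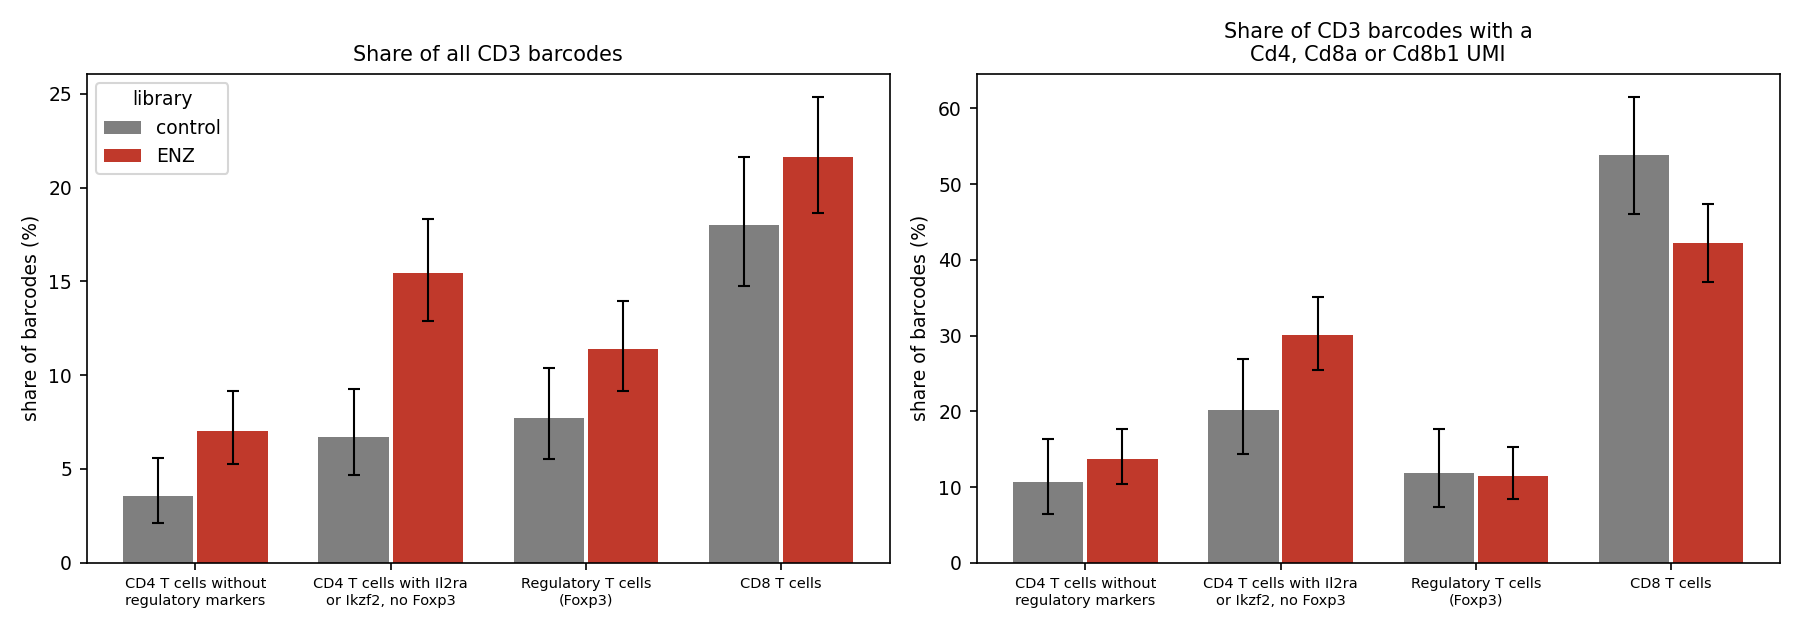
Share of 4 T cell classes in percent, among CD3 barcodes within the epithelial and macrophage limits (left) and among those with a Cd4, Cd8a or Cd8b1 UMI (right), for the control (grey) and ENZ (red) libraries. Bars are shares of barcodes in 1 library each, whiskers 95% Clopper-Pearson intervals. CD4 T cells without regulatory markers stood at 3.56% and 7.02% on the left, and at 10.7% and 13.7% with overlapping intervals on the right.

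By helper program the cells were mixed, and of the defining cytokines Ifng was the one seen in most members. Ifng (ENSMUSG00000055170, chromosome 10 from 118441046 to 118445892, plus strand), the main Th1 cytokine, had 7 UMIs in 4 control members and 31 UMIs in 10 ENZ members, or 94.3 CPM (37.9 to 194) and 138 CPM (93.7 to 196). The ratio of ENZ to control was 1.46 (0.632 to 3.93), not distinguishable from 1. After thinning every cell to 1000 UMIs, an Ifng UMI was left in 11.1% of control and 10% of ENZ members, in 9.89% and 6.49% of CD8 T cells, in 8.82% and 8.18% of cells with Il2ra or Ikzf2 and no Foxp3, in 0% and 1.23% of regulatory T cells and in 0% and 0.0704% of cancer cells. Median UMIs before thinning were 4567 and 4301 in regulatory T cells and 25496 and 25052 in cancer cells. Unthinned, 22.2% of control and 20% of ENZ members had an Ifng UMI, against 0.692% and 0.247% of cancer cells. Tbx21, the Th1 transcription factor, had 1 and 12 UMIs, and Il12rb2, a receptor chain for IL-12, had 80.8 and 111 CPM. At least 1 UMI of Ifng, Tbx21, Il12rb2 or Cxcr6 was found in 7 of 18 control members (38.9%, 17.3% to 64.3%) and 30 of 50 ENZ members (60%, 45.2% to 73.6%), intervals that overlap.

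Other helper cytokines were almost absent. Il2 and Il21 had 0 UMIs in both libraries, under the 3-UMI limit of 40.4 CPM in control and 13.3 CPM in ENZ. Il4 and Il17a had 0 UMIs in control and 1 UMI each in ENZ. Gata3 had 8 UMIs in 5 control members and 20 UMIs in 15 ENZ members (108 and 89.0 CPM), and Bcl6 had 3 and 14 UMIs (40.4 and 62.3 CPM). Gata3 was also found in 23.1% of control and 21.4% of ENZ CD8 T cells, so its presence alone named no helper type. Rora, a nuclear receptor of Th17 and other effector T cells, was found in 16 control and 44 ENZ members at 808 and 1063 CPM, beside 1109 and 1448 CPM in regulatory T cells and 257 and 456 CPM in CD8 T cells.

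Naive and memory transcription factors were present, while the homing receptor Ccr7 was scarce. Tcf7, which maintains naive and memory T cells (ENSMUSG00000000782, chromosome 11 from 52252371 to 52283014, minus strand), had 9 UMIs in 9 control members and 15 UMIs in 9 ENZ members, or 121 and 66.7 CPM, and Lef1 had 135 and 147 CPM. A UMI of either was found in 15 of 18 control members (83.3%, 58.6% to 96.4%) and 25 of 50 ENZ members (50%, 35.5% to 64.5%). After thinning to 1000 UMIs a Tcf7 UMI was left in 5.56% of control and 6% of ENZ members, against 0.554% and 0.387% of cancer cells. Ccr7, which guides naive cells to lymph nodes, had 3 UMIs in 1 control member and 5 UMIs in 5 ENZ members. A Th1 group gene together with Tcf7 or Lef1 was found in 5 control and 15 ENZ members, so both kinds of transcript occurred in the same cells.

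**Figure D2:**
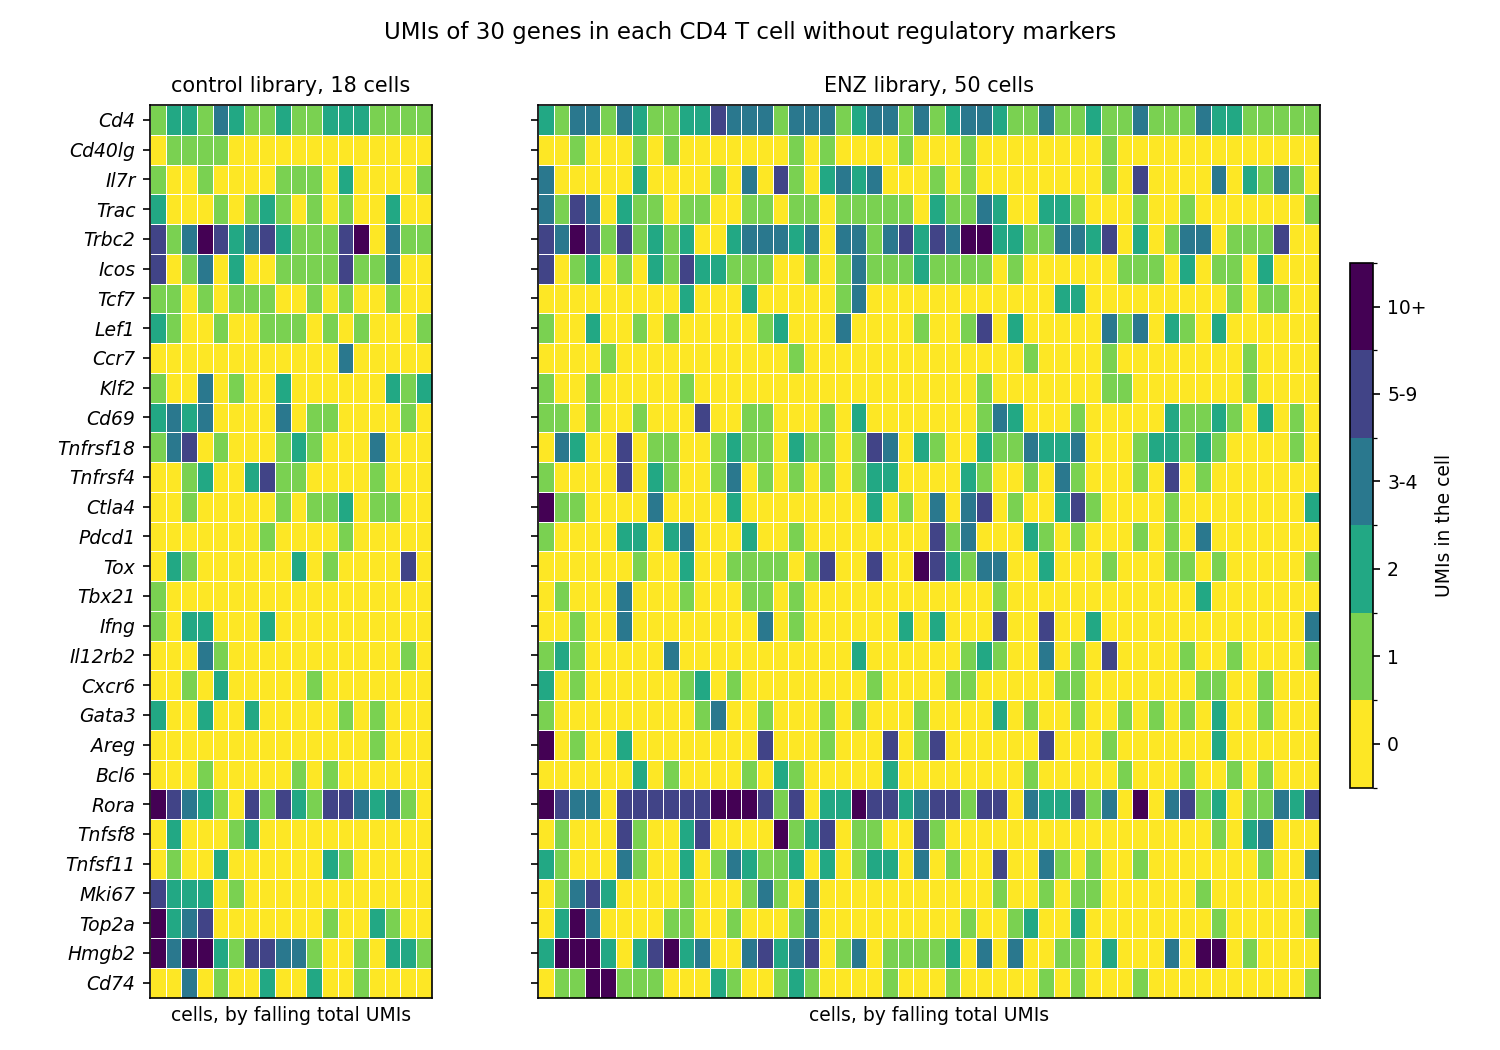
UMIs of 30 genes (rows) in each of 18 control (left) and 50 ENZ (right) CD4 T cells without regulatory markers, cells ordered by falling total UMIs. Colour gives the number of UMIs in the cell, from 0 to 10 or more. Rora and Trbc2 filled most columns, Ifng, Tbx21, Il12rb2, Gata3 and Bcl6 were scattered over different cells, and Ccr7 was seen in 1 control and 5 ENZ cells.

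Set beside regulatory T cells of the same library, the members had more of some Th1 transcripts and of Tnfsf8, and less of several regulatory genes. Both classes were defined on these cells, so the ratios describe the classes and are no test. Of 3136 genes with a mean of at least 50 CPM, rule genes left out, 57 (1.82%) were at least 2-fold higher and 87 (2.77%) at least 2-fold lower in the members in both libraries. With cells thinned to 1000 UMIs, 164 genes were higher and 70 lower. Tnfsf8, which encodes CD30 ligand (ENSMUSG00000028362, chromosome 4 from 63831308 to 63861347, minus strand), had 67.3 and 249 CPM in control and ENZ members against 4.49 and 9.06 CPM in regulatory T cells, ratios of 15 and 27.5. Themis, a T cell receptor signalling protein (ENSMUSG00000049109, chromosome 10 from 28668360 to 28883818, plus strand), had 337 and 663 CPM against 71.8 and 129 CPM. Il12rb2 was 9 and 12.3 times higher, and Ifng 5.25 and 20.3 times, which made 2 of 11 tested Th1 genes higher and 0 lower. In control, 3 members and 1 regulatory T cell had a Tnfsf8 UMI, and 4 and 2 an Ifng UMI. Cells with Il2ra or Ikzf2 and no Foxp3 had these transcripts too. After thinning, Tnfsf8 was left in 14.7% and 10.9% of them, beside 0% and 12% of members. For Il12rb2 the shares were 8.82% and 2.73%, beside 5.56% and 16%, and for Ifng 8.82% and 8.18%, beside 11.1% and 10%. Themis and Trbc2 were the 2 of 18 tested T cell receptor genes past 2-fold. Trbc2, Bach2, Ms4a4b, Pde3b, Tbc1d4, Ly6c2, Hgsnat and Gm2682 were also past 2-fold in both libraries, but 10 of the 11 Hgsnat UMIs in control lay in 1 cell. Tcf7, whose mean lay under 50 CPM here, had 121 and 66.7 CPM against 0 and 2.27 CPM and was found in 0 of 39 control and 1 of 81 ENZ regulatory T cells.

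Among the genes lower than in regulatory T cells, Frmd5 had 13.5 and 0 CPM in control and ENZ members against 543 and 745 CPM, and Itgb8, an integrin chain that activates TGF-beta, had 0 and 8.90 CPM against 233 and 220 CPM. Klrg1, Sh3rf1, Nckap5, Bmyc, Penk, Fam3c, Glrx and Dscam were past 2-fold as well. Tnfrsf9, the costimulatory receptor 4-1BB, had 202 and 240 CPM against 893 and 807 CPM. Ctla4, an inhibitory receptor of activated and regulatory T cells, had 108 and 258 CPM against 539 and 621 CPM, and Tox 148 and 236 CPM against 714 and 562 CPM. Of the 13 tested genes of the regulatory program, 5 were lower and 0 higher, and of 8 tested inhibitory receptor genes 3 were lower and 0 higher. Tnfrsf18 (GITR) and Tnfrsf4 (OX40), costimulatory receptors found in both classes, were within 2-fold of their levels in regulatory T cells. Tnfrsf18 had 269 and 285 CPM against 408 and 344 CPM. Tnfrsf4 had 189 and 178 CPM against 364 and 344 CPM, ratios of 0.519 and 0.517 whose intervals left out 1, and after thinning a Tnfrsf4 UMI was left in 11.1% and 14% of members against 38.5% and 30.9% of regulatory T cells. Cells with Il2ra or Ikzf2 and no Foxp3 lay between these classes for Ctla4, with 421 and 283 CPM, and for Itgb8, with 177 and 130 CPM.

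Set beside CD8 T cells, the members had less of the cytotoxic program and more of the costimulatory receptors Tnfrsf4 and Tnfrsf18. Of 3138 genes, 47 (1.50%) were at least 2-fold higher and 61 (1.94%) at least 2-fold lower in the members in both libraries. With cells thinned to 1000 UMIs, 146 genes were higher and 52 lower. All 7 tested genes of the cytotoxic list were lower. Ccl5, a chemokine of effector and memory T cells, had 498 and 214 CPM in control and ENZ members against 2793 and 3226 CPM, and Gzma, which encodes granzyme A, had 0 and 22.2 CPM against 642 and 408 CPM. Gzmk had 1 and 3 UMIs, and Xcl1, a chemokine ligand for cross-presenting dendritic cells, had 0 UMIs in both libraries against 152 and 54.5 CPM. Sh2d2a, Clcn3, Myb, Gnptab, Dscam and Setbp1 were the other leading genes in that direction, and the transcription factors Runx3 and Eomes were lower too. Tnfrsf4 was 6.29 and 5.68 times higher in the members and Tnfrsf18 4.02 and 5.11 times. Rora was 3.14 and 2.33 times higher. Tnfsf11, which encodes RANK ligand (ENSMUSG00000022015, chromosome 14 from 78277445 to 78308043, minus strand), had 80.8 and 209 CPM against 5.29 and 30.2 CPM. Il1r2, S100a4, Ntrk3, Inpp4b, Pecam1, Tiam1 and Tff1 completed the leading genes, and all 8 control UMIs of Tff1 lay in 1 cell. Pecam1, an adhesion gene also used as an endothelial marker, had 216 and 133 CPM while the endothelial genes Cdh5, Kdr, Flt1, Plvap and Egfl7 had 0 UMIs.

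**Figure D3:**
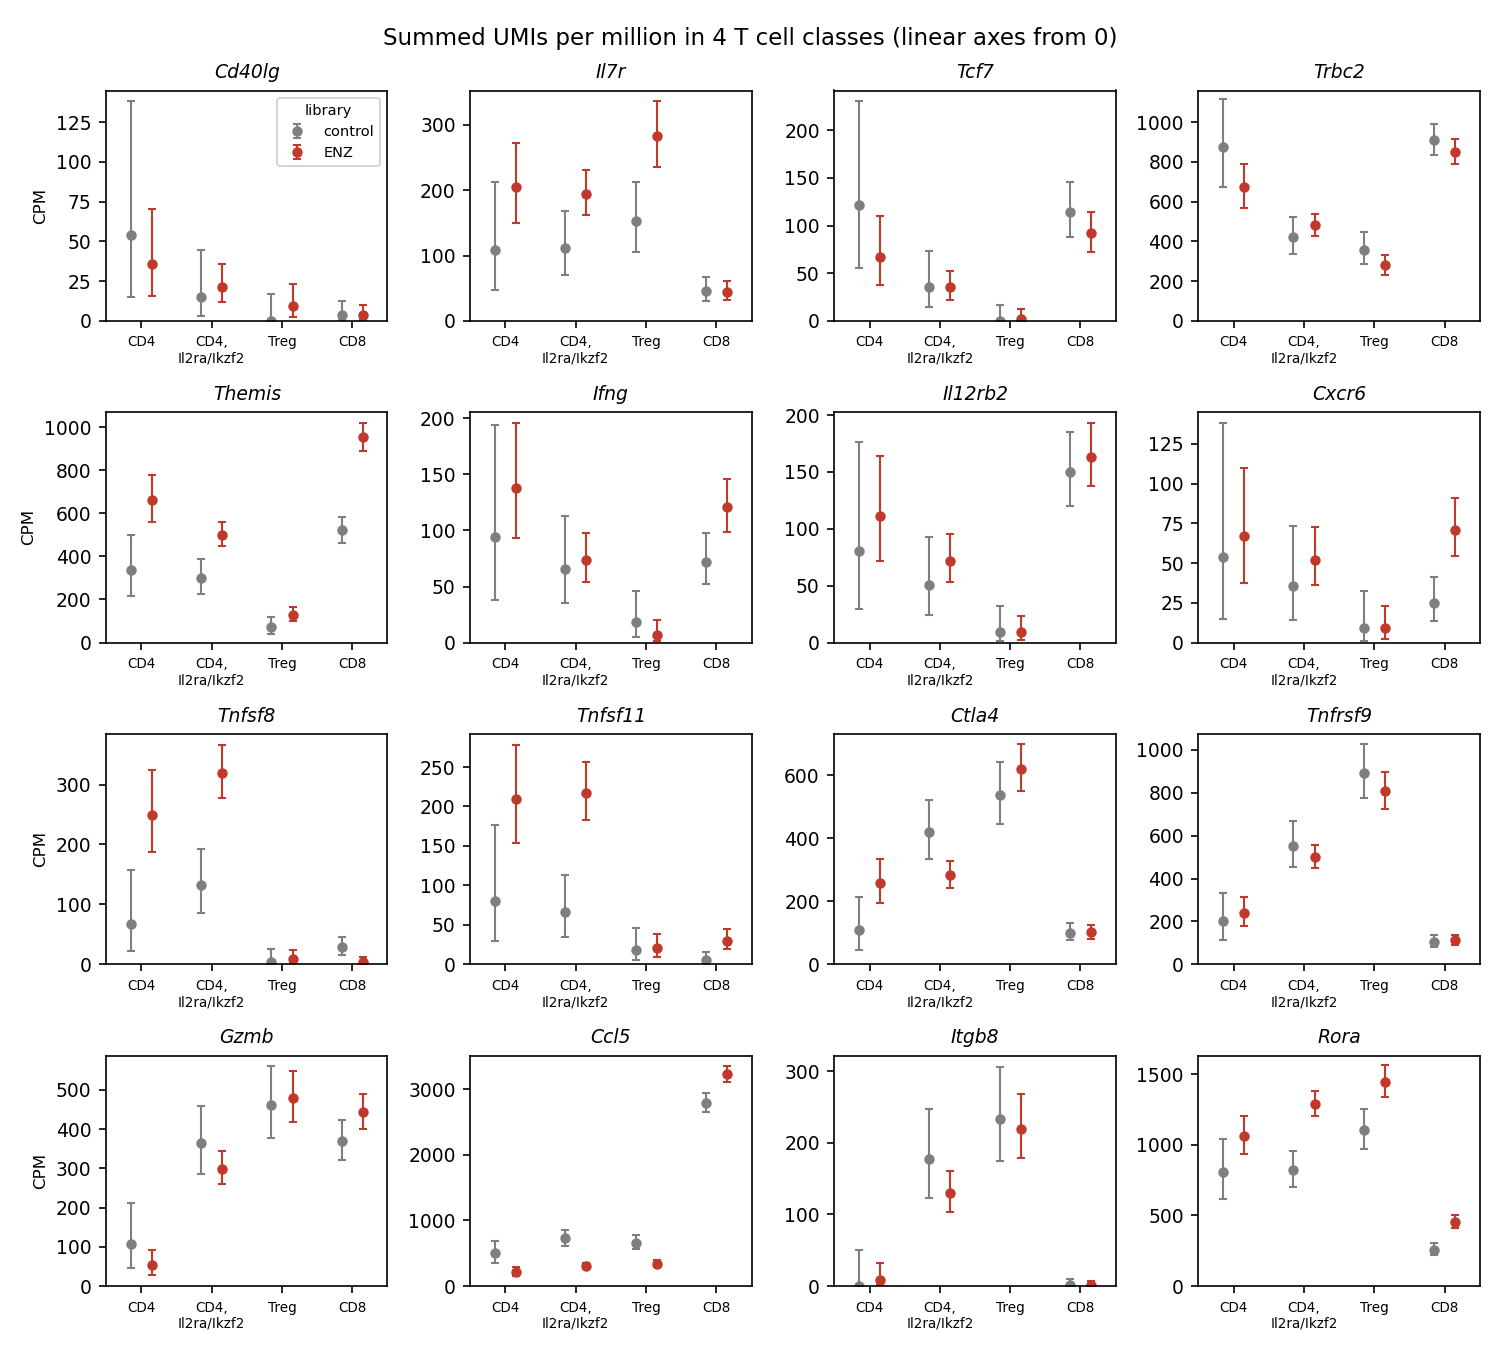
Level in CPM (linear axes from 0) of 16 genes in CD4 T cells without regulatory markers (CD4), CD4 T cells with Il2ra or Ikzf2 and no Foxp3, regulatory T cells (Treg) and CD8 T cells of the control (grey) and ENZ (red) libraries. Points are summed UMIs of 1 library, bars 95% Poisson intervals. Tnfsf8, Ifng, Themis and Tcf7 were higher in the CD4 class than in Treg in both libraries, Itgb8, Ctla4 and Tnfrsf9 lower, and Ccl5 was highest in CD8 T cells.

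The comparison of ENZ with control asks which transcripts of these cells differed after androgen receptor blockade. Of 3032 genes tested, 329 (10.9%) were at least 2-fold higher and 275 (9.07%) at least 2-fold lower in the ENZ library, and the intervals of 143 and 115 of these left out 1. The median log2 ratio over all tested genes was -0.01. One UMI was worth 13.5 CPM in the control members, so most of these genes rest on a handful of control UMIs, and a list is read below against the 10.9% and 9.07% of all genes. The ratios of 70 named genes past 2-fold were recomputed under up to 12 other settings of the rule, the depth or the scaling, and 57 came within 2-fold or changed sign in at least 1 of them. The rule read from barcodes thinned to 1000 UMIs did so for 34 genes, the strict lineage limits for 24 and the requirement of 2 Cd4 UMIs for 21. Camk1d, Foxp1 and Tnfsf8 gave a ratio past 2-fold in all 12. One ENZ cell held 15 Tnfsf8 UMIs, and no setting was aimed at that cell. Where a setting left 0 UMIs in 1 library, the ratio is a bound against 3 UMIs, and a bound within 2-fold was counted among the 57.

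Among the 15 genes that ranked highest by the near bound of their interval, several were found in many ENZ cells and few control cells. Nedd9, a scaffold protein of adhesion and T cell receptor signalling, had 3 UMIs in 3 control members and 79 UMIs in 33 ENZ members, or 40.4 and 351 CPM, a ratio of 8.70 (2.87 to 43.1). In regulatory and CD8 T cells the Nedd9 ratio was 1.05 and 1.64. The highest and lowest ranked genes were picked for their ratio in the members. Ratios nearer to 1 in other classes therefore do not show a difference particular to the members. Nr4a2, an orphan nuclear receptor induced by receptor signalling, had 1 UMI in 1 control member and 36 UMIs in 21 ENZ members, a ratio of 11.9 (2.0 to 482), beside 2.16 and 1.43 in regulatory and CD8 T cells. Under the strict lineage limits and with at least 2 Cd4 UMIs the control members had 0 Nr4a2 UMIs. Its log2 ratio was then at least 0.37 and at least 0.98 against the floor of 3 control UMIs, beside 3.57 as reported. Il1r2, a decoy receptor for IL-1, had 9 UMIs in 4 control members and 103 UMIs in 26 ENZ members, or 121 and 458 CPM, a ratio of 3.78 (1.92 to 8.5). It was lower in the ENZ library in cells with Il2ra or Ikzf2 (319 and 202 CPM), and neutrophils had 672 and 742 CPM of Il1r2. The neutrophil markers of the members summed to 296 control and 142 ENZ CPM, and the part of neutrophil transcripts in the Il1r2 levels was not tested. Areg, a growth factor of the epidermal growth factor family, had 1 UMI in control and 45 UMIs in 11 ENZ members, with 14 in 1 cell. Phlpp1 (53.9 and 316 CPM, 4 and 20 cells) and Plcl1 (67.3 and 334 CPM, 5 and 21 cells) were also spread over cells. Kansl1l had 0 UMIs in control and 37 UMIs in 12 ENZ members, at least 4.07-fold higher against the floor of 3 control UMIs. When the rule was read from barcodes thinned to 1000 UMIs, which left 6 control and 19 ENZ cells, the log2 ratio was 0.74 for Nedd9, 0.15 for Areg, -0.49 for Phlpp1, 0.55 for Plcl1 and 1.57 for Il1r2, in place of 3.12, 3.89, 2.55, 2.31 and 1.92. With at least 2 Cd4 UMIs it was 0.96 for Il1r2 and at least 0.46 for Kansl1l, which again had 0 control UMIs.

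Single cells decided other genes of that group. Of 37 Myo1h UMIs 35 lay in 1 ENZ cell, of 41 Chpt1 UMIs 39, of 24 Ankrd35 UMIs 17, of 57 H2-Aa UMIs 39 and of 117 Cd74 UMIs 87. Without the 3 members named above, which held 5 or more UMIs of 1 of 76 marker genes of other lineages, the log2 ratio was -0.26 for H2-Aa and -0.58 for Cd74, in place of 3.23 and 1.95 with them. The 76 genes leave out markers that T cells also use, among them Ly6c2, Pecam1, Plac8, Ccr2, Ccr7, Ctsb and Xbp1. With these 7 counted, 5 control and 6 ENZ members held 5 or more UMIs of 1 gene. Areg, listed above for group 2 innate lymphoid cells, was not counted either way. Several ENZ members held 5 or more Areg UMIs, 1 of them 14.

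The 15 genes that ranked lowest included Foxp1 and Klf2, which act in quiescent T cells, and genes of the dividing cell. Foxp1, a transcription factor that holds T cells in quiescence, had 33 UMIs in 11 control members and 20 UMIs in 13 ENZ members, or 445 and 89.0 CPM, a ratio of 0.200 (0.109 to 0.359), beside 0.974 in regulatory and 0.893 in CD8 T cells. Klf2, which drives the genes of T cell recirculation, had 12 UMIs in 7 of 18 control members and 7 UMIs in 7 of 50 ENZ members, or 162 and 31.1 CPM, a ratio of 0.193 (0.0643 to 0.531), beside 1.04 and 1.05. When the limits on epithelial and macrophage genes (the lineage limits) were lifted, which added 4 control and 5 ENZ cells, the log2 ratio of Klf2 was 0.15. The translation factor Eif1 had 2384 and 1059 CPM and the histone gene H3f3a 916 and 351 CPM, both in nearly every control member. Ly6c2 had 296 and 84.5 CPM, Slu7 175 and 22.2 CPM and Grina 216 and 35.6 CPM. With the rule read from thinned barcodes the log2 ratio was -0.57 for Eif1, -0.61 for H3f3a, -0.85 for Slu7 and -0.59 for Grina, in place of -1.17, -1.38, -2.98 and -2.60, and without the lineage limits it was -0.47 for Ly6c2, in place of -1.81. Dtl had 8 and 3 UMIs. All control UMIs of Gfod2, Gria4 and Gm10827, and 13 of 14 of Abhd3, lay in 1 cell.

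**Figure D4:**
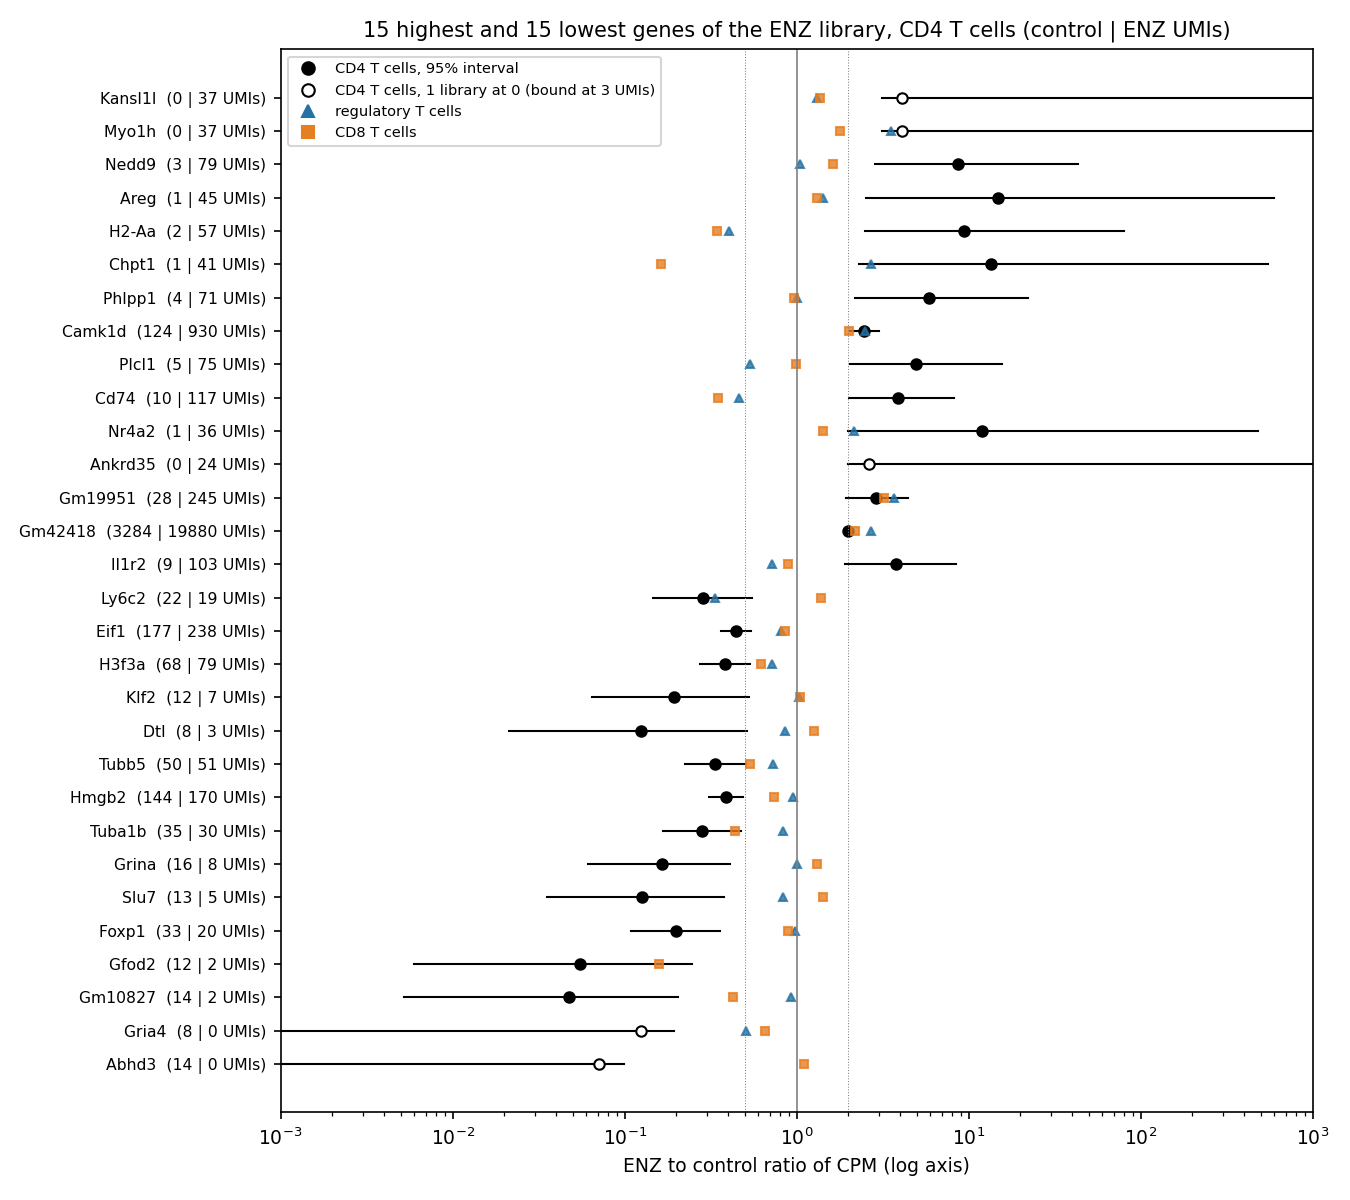
Ratio of ENZ to control CPM (log axis) of the 15 highest and 15 lowest ranked genes in CD4 T cells without regulatory markers, with the control and ENZ UMIs beside each name. Black points and lines are the ratio and its 95% interval, open points a bound where 1 library had 0 UMIs, triangles regulatory T cells and squares CD8 T cells. Most triangles and squares lay nearer to 1 than the points of the CD4 T cells, while Camk1d, Gm19951 and Gm42418 lay at about the same ratio in all 3 classes. The genes were picked for their ratio in the CD4 T cells, so other classes tend to lie nearer to 1 by that choice alone.

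Cell cycle genes were lower in the ENZ members, and 1 control cell carried much of this. Of 10 tested genes 7 were at least 2-fold lower and 1 higher, against 9.07% and 10.9% of all genes, with a median log2 ratio of -1.43. Top2a, the topoisomerase of dividing cells, had 377 and 133 CPM, Hmgb2 1940 and 756 CPM, Tubb5 673 and 227 CPM, Stmn1 323 and 129 CPM, Ube2c 229 and 75.6 CPM, Birc5 135 and 40.0 CPM and Cenpf 121 and 22.2 CPM. Pcna, a replication clamp, went the other way with 53.9 and 129 CPM, and Mki67 had 162 and 138 CPM. The control member with the most cell cycle UMIs held 132 of all 327, including 81 of 144 Hmgb2 UMIs. Without it, 3 of 9 tested genes were lower, 1 was higher and the median log2 ratio was -0.34. The ENZ member with the most held 95 of 439 cell cycle UMIs and was not left out. Tuba1b was also among the lowest ranked genes (471 and 133 CPM). With the rule read from thinned barcodes the log2 ratio turned to at least 1.05 for Tuba1b, which had 0 control UMIs there, and to 0.32 for Stmn1. In thinned members it was 0.53 for Birc5 and -0.47 for Pcna. Of 9 cell cycle genes tested in thinned members 5 were lower and 0 higher, with a median of -1.14. In cells with at least 2 Cd4 UMIs the cell cycle median was -0.10 and the log2 ratios of Hmgb2 and Ube2c were 0.17 and 0.75. A UMI of both Mki67 and Top2a was found in 4 of 18 control members (22.2%, 6.41% to 47.6%) and 6 of 50 ENZ members (12%, 4.53% to 24.3%), whose median depth was 7333.5 and 8117.5 UMIs, against 2968 and 3641.5 UMIs in the other members.

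Several inhibitory and regulatory genes outside the rule had higher summed levels in the ENZ members, some of them on few cells. Of 10 tested genes of the regulatory program 4 were past 2-fold higher and 0 lower, and the intervals of 2 left out 1. These were Ctla4 (8 UMIs in 7 of 18 control and 58 UMIs in 16 of 50 ENZ members, ratio 2.39, 1.14 to 5.81) and Areg. Samhd1 (80.8 and 165 CPM) and Nrp1 (26.9 and 89.0 CPM) had intervals that included 1 and log2 ratios of -0.30 and -0.59 under the thinned rule. Of the ENZ Ctla4 UMIs 20 lay in 1 cell, and after thinning to 1000 UMIs per member the log2 ratio of Ctla4 was -0.21. The share of members with a Ctla4 UMI went the other way, 38.9% in control and 32% in ENZ, or 27.8% and 8% after thinning. Of 6 tested inhibitory receptor genes 2 were higher and 1 lower. Pdcd1 (PD-1) had 2 UMIs in control and 31 UMIs in 16 ENZ members (26.9 and 138 CPM, ratio 5.12, 1.30 to 44.1), and Nt5e (CD73) had 296 and 120 CPM (ratio 0.405, 0.222 to 0.747), with a log2 ratio of -0.25 in place of -1.30 under the strict lineage limits. Both Pdcd1 and Tox were found in 0 of 18 control and 8 of 50 ENZ members, where 0 of 18 allows a share of cells with a UMI of both of up to 18.5% by the exact interval (16.7% by the 3-count limit), which is no limit on cells that express them. With the rule read from thinned barcodes the log2 ratio of Pdcd1 was 0.41 and of Ctla4 -0.36.

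Activation and helper lists held few genes past 2-fold, and most were short. Of 7 tested helper identity genes 1 was higher and 0 lower, the adhesion receptor Cd2 (80.8 and 222 CPM). Its log2 ratio was 0.23 in members thinned to 1000 UMIs and -0.30 with the rule read from thinned barcodes. Of 18 genes of the T cell receptor complex and its signalling 1 was higher, Prkcq (40.4 and 169 CPM, with a log2 ratio of -1.17 under the thinned rule), and 2 were lower, Plcg1 (80.8 and 40.0 CPM) and Trbc1 (445 and 200 CPM, with 20 of 33 control UMIs in 1 cell). Lifting the lineage limits gave log2 ratios of -0.27 for Plcg1 and -0.40 for Trbc1, in place of -1.01 and -1.15. Of 15 activation genes 2 were higher, Nr4a2 and Nfatc1 (67.3 and 156 CPM), and 1 lower, the immediate early gene Egr1 (121 and 40.0 CPM), while Icos, Cd69 and Cd44 were not past 2-fold. Of 7 naive and recirculating genes 2 were lower, Foxp1 and Klf2, and 0 higher. Of 11 Th1 genes 2 were higher, Runx3 (67.3 and 182 CPM) and Id2 (108 and 231 CPM), and 1 lower, Ccl5 (498 and 214 CPM), which had 660 and 342 CPM in regulatory T cells and a CD8 T cell ratio of 1.16. Under the thinned rule the log2 ratio of Runx3 was 0.41, of Id2 0.64 and of Nfatc1 0.15, in place of 1.44, 1.10 and 1.21, and without the lineage limits that of Ccl5 was -0.56, in place of -1.22. Of 2 tested Th2 genes Areg was higher, and of 3 Th17 genes none passed 2-fold. Of 5 T follicular helper genes Tnfsf8 was higher, with 3 control and 16 ENZ members and a ratio of 3.70 (1.49 to 11.8). One ENZ cell held 15 of its UMIs and another 8. Of 3 cytotoxic genes Ccl5 and Gzmb were lower. The log2 ratio of Gzmb was 0.11 in thinned members and -0.11 without the lineage limits, in place of -1.01.

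Receptors, adhesion and quiescence genes differed singly. Tgfbr1 was the 1 of 10 tested cytokine receptor genes past 2-fold (40.4 and 133 CPM). Of 9 genes of JAK-STAT signalling Pias1 was higher and Stat5a lower (175 and 80.1 CPM). Itgb2, the common chain of leukocyte integrins, was the 1 of 11 adhesion and chemotaxis genes past 2-fold (53.9 and 191 CPM, 2 and 27 cells, ratio 3.55, 1.29 to 13.6), with a log2 ratio of 0.75 in thinned members in place of 1.83. Of 18 quiescence and survival genes Txnip was higher (1 UMI in control and 25 UMIs in 16 ENZ members, with a log2 ratio of 0.79 without the lineage limits in place of 3.05) and Klf2 and Gimap6 were lower. The log2 ratio of Gimap6 was -0.30 without the lineage limits, in place of -1.01. Of 11 metabolic genes Hk2, the first enzyme of glycolysis, was higher (3 UMIs in 3 and 43 UMIs in 20 members, ratio 4.73, 1.51 to 23.8), but without the lineage limits its log2 ratio was 0.029, in place of 2.24. Lower were 3 genes, the glucose transporters Slc2a3 (94.3 and 17.8 CPM) and Slc2a1 (80.8 and 31.1 CPM) and the mTOR partner Rptor. Lifting the lineage limits gave log2 ratios of -0.70 for Slc2a1 and -0.49 for Rptor, in place of -1.38 and -1.05. None of 10 tested interferon stimulated genes passed 2-fold, led by Ifi27l2a with 1603 and 1277 CPM. Of 18 immediate early and heat shock genes 0 were higher and 2 lower, Ier3 and Egr1, and Hspa1a had 3017 and 2491 CPM. The glucocorticoid receptor gene Nr3c1 had 781 and 1014 CPM, a ratio of 1.30 (0.969 to 1.76).

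**Figure D5:**
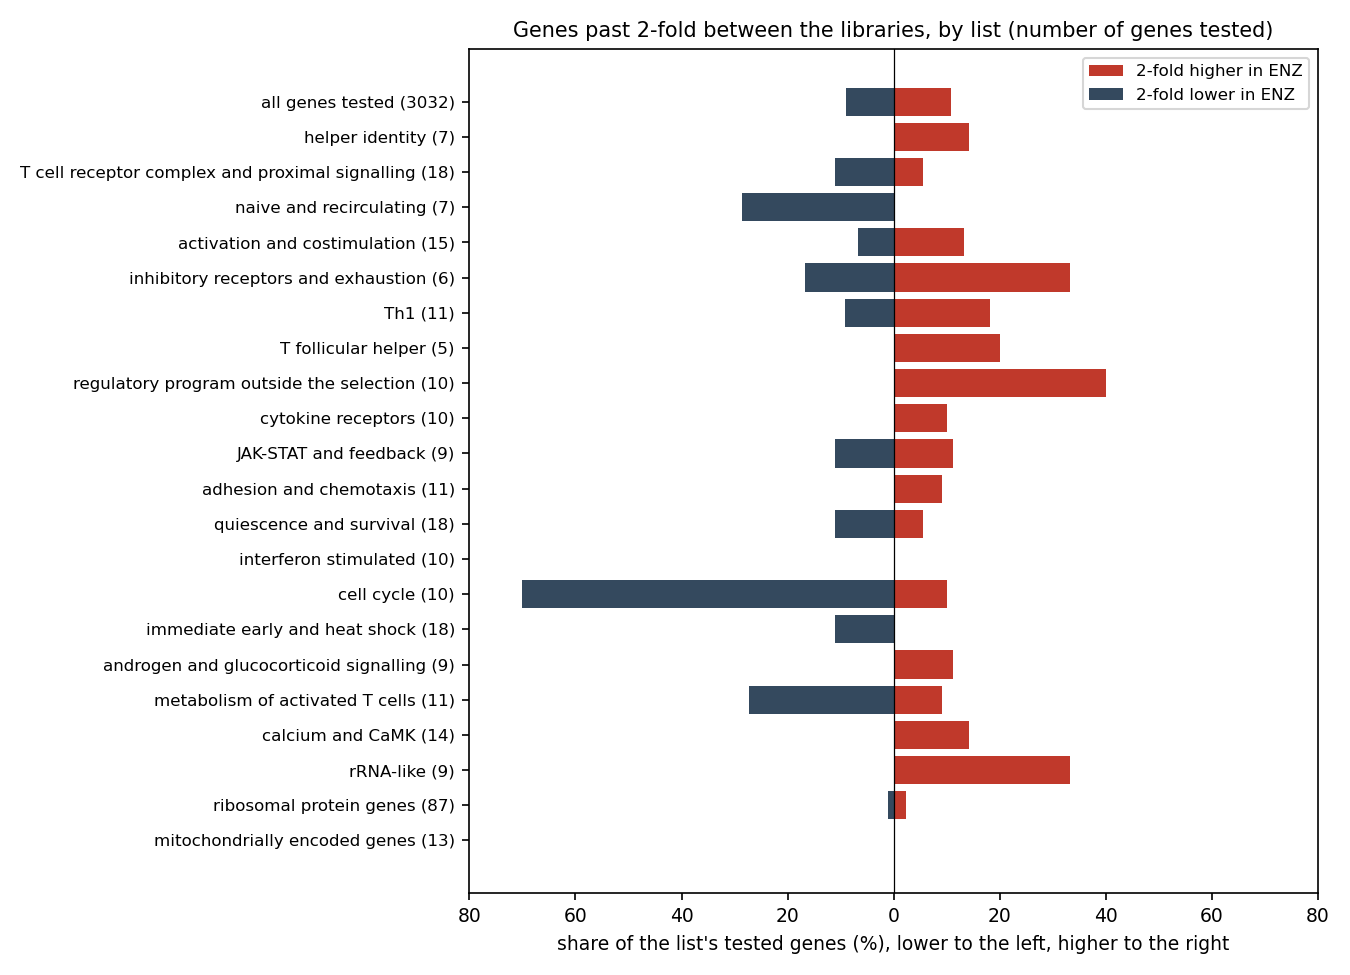
Share of tested genes at least 2-fold higher (red, to the right) or lower (dark, to the left) in the ENZ than in the control library, in percent, for gene lists with at least 5 tested genes in CD4 T cells without regulatory markers. The number of tested genes is beside each name and the first bar gives all 3032 genes, 10.9% higher and 9.07% lower. Cell cycle genes had 7 of 10 lower, or 3 of 9 without 1 control cell. The regulatory program had 4 of 10 higher, with the intervals of 2 leaving out 1. With the rule read from thinned barcodes these regulatory genes (Ctla4, Areg, Samhd1 and Nrp1) were within 2-fold.

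Camk1d, a calcium and calmodulin dependent kinase (ENSMUSG00000039145, chromosome 2 from 5293457 to 5714515, minus strand), was found in 18 of 18 control and 49 of 50 ENZ members. It had 124 control UMIs (1670 CPM) and 930 ENZ UMIs (4137 CPM), a ratio of 2.48 (2.05 to 3.01), with 106 of the ENZ UMIs in 1 cell. After thinning, 94.4% of control and 94% of ENZ members had a Camk1d UMI. Outside T cells that share was 45.9% and 73.8% in cancer cells, 70.6% and 86.8% in neutrophils and 66.0% and 89.7% in B cells. The ratio was 2.49 in regulatory T cells, 2.01 in CD8 T cells and 1.85 in cells with Il2ra or Ikzf2. Of 14 tested calcium and CaMK genes Camk1d and Nfatc1 were higher and 0 lower, and Camk4 had 741 and 756 CPM. The noncoding gene Gm42418, which lies over ribosomal RNA sequence, had 44235 and 88425 CPM. It is on a list of 9 genes grouped here as rRNA-like, which summed to 61409 and 111990 CPM. That name is only a label of the list, since Gphn, Cdk8, Lars2, Cmss1 and Filip1l on it are protein-coding genes. Of the 9 genes, 3 were past 2-fold higher, Gphn at a ratio of 2.21, Cdk8 at 2.1 and Gm19951 at 2.89. Lars2 was at 1.98 and Cmss1 at 1.56. AY036118, the second most abundant of them, was lower (8095 and 7019 CPM, a ratio of 0.867), Filip1l had 9 and 14 UMIs and Gm26917 283 and 409 CPM. Ribosomal protein genes went the other way, with 244922 and 192987 CPM in sum, 56 of 87 intervals below 1, and 2 genes past 2-fold higher and 1 lower. The 13 mitochondrially encoded genes summed to 22481 and 19936 CPM, with none past 2-fold. The Camk1d ratio lay between the lowest and highest ratios of the genes grouped as rRNA-like, which did not all differ in one direction. It was above 1 in all 4 T cell classes, and the part of a difference between the libraries as a whole was not tested.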

How the data were processed

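Tumor tissue of a pair of mice, after vehicle or ENZ, was enriched for immune cells with an isolation kit, stained with a CD45 antibody and profiled with 10x Genomics 3' chemistry (v2 per the labels). The values deposited were unnormalized counts of UMIs for 32285 genes in each barcode, aligned to mm10. The deposited count files name Cell Ranger 7.2.0 in their header and the submitters' processing notes Cell Ranger 2.1.1. The libraries held 170830346 (control) and 162030149 (ENZ) UMIs, with 12348 and 10354 barcodes of at least 1000 UMIs. UMIs of members were summed per library and divided by their total (CPM). Genes with a mean of at least 50 CPM over the sums compared were read at a 2-fold threshold, genes of the rule left out, and a library at 0 was set to 3 UMIs. No doublet caller was run. Intervals and settings were computed with scipy 1.17.1, pandas 2.3.3 and numpy 2.4.6 under Python 3.11.15. Interval coverage was checked on simulated Poisson counts only, which do not gather in single cells as some of the counts here do. Named genes were the defining helper genes, up to 5 genes of highest mean CPM per list and list genes past 2-fold, the 15 highest and 15 lowest ENZ to control ratios by near bound, and 10 per direction for each neighbouring class. Of these, the ones that carry the comparisons are given, and a few other list genes, chosen after their values were seen, stand beside them (among them Mki67, Tcf7 and Ccr7). Some genes of the lists are not reported here. Members and lists were chosen with earlier results of these data known. Alternatives varied the depth, mitochondrial and lineage limits, the Cd4 threshold, thinning, scaling, free RNA (a low estimate, since the rule limits the genes it was read from) and single members. The share of free RNA was estimated at 4.57% in control and 7.29% in ENZ.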

Additional observations from a re-analysis of the deposited data

Results flagged for a closer look

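For 5 of the 30 ranked genes the ratio of ENZ to control in CD4 T cells without regulatory markers lay on the other side of 1 from that in regulatory or CD8 T cells, with both intervals leaving out 1. The genes were picked by their ratio in the CD4 T cells, and the difference between the classes was not tested. H2-Aa had a ratio of 9.41 in the CD4 T cells, 0.407 (0.299 to 0.553) in regulatory T cells and 0.343 (0.225 to 0.514) in CD8 T cells. Cd74 had a ratio of 3.86, beside 0.465 (0.388 to 0.558) and 0.351 (0.281 to 0.435). Chpt1 had a ratio of 13.5, beside 0.163 (0.0971 to 0.262) in CD8 T cells. Plcl1 had a ratio of 4.95, beside 0.539 (0.387 to 0.753) in regulatory T cells. Ly6c2 had a ratio of 0.285, beside 1.40 (1.20 to 1.63) in CD8 T cells, and without the lineage limits of the rule its log2 ratio was -0.47, within 2-fold. The 3 members that held 5 or more UMIs of 1 of the 76 lineage marker genes were also left out. Without them the log2 ratio in the CD4 T cells was -0.26 for H2-Aa and -0.58 for Cd74. Both lay on the same side as in the other classes. That of Plcl1 was 0.55 with the rule read from thinned barcodes. One ENZ cell held 39 of 57 H2-Aa UMIs and 87 of 117 Cd74 UMIs, and one held 39 of 41 Chpt1 UMIs, while the 75 Plcl1 UMIs lay in 21 ENZ cells and the Ly6c2 UMIs in 7 control and 6 ENZ cells.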

How the results depend on the processing

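The difference in share among CD3 barcodes lay between 1.75 and 4.63 points under the limits, depths and Cd4 thresholds tried. It was 0.340 points among all barcodes and -3.37 points among Cd4-positive cells without Foxp3. Counts of genes past 2-fold were less stable. With the rule read from barcodes thinned to 1000 UMIs (6 control and 19 ENZ cells) 806 genes were lower, and the median log2 ratio of all genes moved to -0.23. With at least 2 Cd4 UMIs (8 and 28 cells) 431 were lower, and under the strict lineage limits (9 and 23 cells) 502 were higher and 518 lower. When the total left out the genes grouped as rRNA-like and the mitochondrial and ribosomal protein genes, which raises every CPM, the counts were 511 and 516. Members thinned to 1000 UMIs gave 611 lower, with a median of -0.15. A minimum mean of 100 CPM gave 116 and 83, and of 20 CPM 869 and 907. Cells thinned to 1000 UMIs gave 164 genes higher and 70 lower than in regulatory T cells, and 146 higher and 52 lower than in CD8 T cells. The cause of the moves was not tested.

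The log2 ratios of 89 named genes were recomputed. Keeping at least 500 UMIs, at most 10% mitochondrial UMIs or barcodes absent from the other library left the same members and values. Over the 12 settings that changed a value, 889 of 1012 ratios stayed within the interval of the reported ratio, 93 left it, and 30 that were past 2-fold as reported changed sign. Within the first 2 of these groups 23 ratios, not counted as past 2-fold, also changed sign. Of the 30, the thinned rule changed H2-Aa (-2.17), Phlpp1 (-0.49), Cd74 (-0.17), Tuba1b (at least 1.05), Ctla4 (-0.36), Prkcq (-1.17), Cd2 (-0.30), Stmn1 (0.32), Samhd1 (-0.30) and Nrp1 (-0.59). In thinned members the sign changed for Ctla4 (-0.21), Pcna (-0.47), S100a9 (0.11), Hgsnat (1.33), Nrp1 (-0.47), Birc5 (0.53) and Gzmb (0.11). With 2 Cd4 UMIs it changed for Hmgb2 (0.17), Trbc1 (0.53) and Ube2c (0.75), without lineage limits for Klf2 (0.15) and Pcna (-0.21), and under strict limits for H2-Aa (-1.63), Cd74 (-0.95) and H2-Ab1 (-2.04). Without members holding 5 or more UMIs of 1 of the 76 lineage marker genes it changed for H2-Aa (-0.26), Cd74 (-0.58), S100a9 (0.29) and H2-Ab1 (-2.17). Without the top cycling control cell it changed for Trbc1 (0.022). Of the others, the thinned rule gave Il7r -0.52, Tcf7 0.64, Gata3 1.15 and Irf4 -0.95, 2 Cd4 UMIs gave Gata3 1.85, and thinned members Ifng -0.74. The 2 settings that left out single members, and those of the class comparisons, were chosen after seeing the data. No paired analysis was possible because each group had 1 library. No replicate could be left out. Control depth, at 13.5 CPM per UMI, limits every ratio above.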

Other observations

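Type 2 cytokine genes were sparse in the ENZ library and at 0 UMIs in the control library for both kinds of Foxp3-negative CD4 T cell. The control library held only 18 of these cells without regulatory markers and 34 with Il2ra or Ikzf2. At 0 of 18 and 0 of 34, the exact interval allows a share of up to 18.5% and 10.3%. Il5, which encodes the eosinophil growth factor IL-5, had 46 UMIs in 7 of 110 ENZ cells with Il2ra or Ikzf2, with 28 in 1 cell, and 3 UMIs in 2 of 50 CD4 T cells without regulatory markers. Il13 had 27 UMIs in 8 of these 110 cells, with 10 in 1 cell, and 3 UMIs in 3 of the 50. Il4 had 1 UMI in each class. In the same Il2ra or Ikzf2 cells the Gata3 level was 91.2 CPM (control) and 214 CPM (ENZ), and Il1rl1, the IL-33 receptor gene, had 76.0 and 170 CPM. Regulatory T cells had 0 Il13 UMIs in both libraries and 1 Il5 UMI in ENZ. Their Il1rl1 level was also higher in the ENZ library, with 85.3 and 208 CPM, and their Gata3 level was 130 and 163 CPM.

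The barcodes that met every condition but had 0 Cd4 UMIs, 103 in control and 82 in ENZ, had 158 and 186 CPM of Il7r, 36.1 and 56.4 CPM of Cd40lg and 131 and 133 CPM of Tcf7. Their Trbc2 level was 377 and 305 CPM, beside 876 and 672 CPM in the CD4 T cells without regulatory markers.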
